A study of Mus musculus with 24 samples.

Results

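Liver gene expression at zeitgeber time 16 (ZT16), in the early dark phase, was compared between wild-type mice and mice whose hepatocytes lack the nuclear receptors Rev-erb alpha and beta. The comparison holds 4 of the 24 arrays of the series, chosen by genotype and time label: 2 arrays of DKO liver and 2 of wild-type liver. The animals of both groups were 20-week-old males on a C57Bl6/J background. The DKO strain was labelled Reverbalpha/beta Alb Cre+ and the wild-type strain Reverbalpha/beta Alb Cre-, so the controls were without Cre and no Cre-only control was among the samples. The albumin promoter drives Cre in hepatocytes, and the other liver cells of a DKO mouse are therefore not its target. The remaining 20 arrays covered both genotypes at ZT0, ZT4, ZT8, ZT12 and ZT20, again with 2 arrays per group, on Illumina bead arrays that read biotin-labelled cRNA. The labels call the 2 arrays of a group technical replicates, so each genotype is represented at ZT16 by 1 RNA sample, and the sources used here do not say how many animals gave that RNA.

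Rev-erb alpha (Nr1d1) and Rev-erb beta (Nr1d2) are heme-binding receptors that repress transcription by recruiting a corepressor complex with histone deacetylase activity. They bind the element AGGTCA with an A/T-rich flank, for which they compete with the activating ROR receptors, and they close a feedback loop of the circadian clock by repressing the activator gene Arntl (BMAL1). In liver they are also known as regulators of lipid and bile acid metabolism.

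Values are normalized log2 intensities, so a difference of 1 is a 2-fold change, and levels of different genes are not compared because each has its own probe. With 1 RNA sample per genotype there is no test at ZT16, and sizes of difference are described. A gene is called apart where the lower array of 1 genotype lay above the higher array of the other by at least 1 log2 unit and the higher genotype was detected on both arrays. Where arrays did not overlap but the gap was under 1, this only describes the arrays, and its share over all genes was not counted. The 2 arrays of a genotype correlated at r = 0.992 in DKO and 0.994 in wild type across genes. Arrays of a genotype differed from each other with an SD of 0.279 in DKO and 0.238 in wild type, against an SD of 0.445 for the difference between genotypes. The former are differences of single arrays and the latter of means of 2 arrays, so the measures are not on 1 scale. A pair of technical arrays differed by 2-fold or more for 58 genes in DKO and 14 in wild type.

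At ZT16 the DKO arrays were on slide 2 and the wild-type arrays on slide 3, and the effects of slide and of genotype cannot be told apart at that time. Unnormalized median intensities were 293.2 and 293.3 on the DKO arrays and 245.7 and 252.4 on the wild-type arrays, and 9611 and 9791 probes were detected in DKO against 10060 and 10227 in wild type. The wild-type sample at ZT4 stood apart from the other wild-type samples. Over the 145 genes called apart at ZT16, it lay nearer to the DKO mean than to the wild-type mean of the times other than ZT16 for 87 (60%). The count was 48 for wild type at ZT0, also on slide 2, and 21, 22 and 23 at ZT8, ZT12 and ZT20, on slide 3. The genes were chosen by DKO arrays on slide 2 and wild-type arrays on slide 3. Counts from different slides are therefore not on like terms. The comparisons within a slide and the test over the other times, which use the ZT4 sample, are given with and without it.

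The tissue label was checked with hepatocyte genes. Of 15 listed hepatocyte markers 13 were measured, with a median difference of 0.01 between genotypes, and their summed intensity was 623860 and 624811 on the DKO arrays and 616505 and 621476 on the wild-type arrays. The apolipoprotein gene Apoa1 was at 16.13 and 16.11 in DKO and at 16.11 and 16.12 in wild type. The albumin probe was the exception, at 6.32 and 6.70 in DKO, where it was not detected, and at 7.17 and 7.82 in wild type. That probe was near background in both genotypes, unlike the other secreted hepatocyte proteins Apoa1, Ttr and Ahsg.

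The clock genes that the receptors repress directly were taken first. The promoters of Arntl and of Nfil3, a repressor of D-box genes, are shown because each holds the element TAGGTCA and both genes belong to the clock list described next. Sequences are from RefSeq on build GRCm38.p6 and each window of 300 bases covers the annotated start of transcription. Arntl lies on the plus strand at chr7:113207261-113207560 and Nfil3 on the minus strand at chr13:52980990-52981289. Each is printed 5′ to 3′ on the strand of its gene, and capitals mark TAGGTCA or its reverse complement TGACCTA.
Arntl: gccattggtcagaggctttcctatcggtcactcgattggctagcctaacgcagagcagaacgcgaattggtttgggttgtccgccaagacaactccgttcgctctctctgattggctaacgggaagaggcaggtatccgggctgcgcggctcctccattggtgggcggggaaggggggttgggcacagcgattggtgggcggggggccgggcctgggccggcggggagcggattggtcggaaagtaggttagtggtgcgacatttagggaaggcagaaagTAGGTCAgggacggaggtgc
Nfil3: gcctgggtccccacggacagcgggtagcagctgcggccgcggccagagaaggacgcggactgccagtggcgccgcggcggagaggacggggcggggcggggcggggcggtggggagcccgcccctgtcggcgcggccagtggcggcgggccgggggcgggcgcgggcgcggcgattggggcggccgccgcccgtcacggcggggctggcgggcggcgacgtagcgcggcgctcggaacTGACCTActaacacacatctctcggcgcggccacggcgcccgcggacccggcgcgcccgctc

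The signal of the targeted receptors was not lower in the arrays labelled DKO. Nr1d1 read 9.64 and 9.55 in DKO and 7.17 and 7.23 in wild type, a difference of 2.40 or 5.27-fold higher in DKO, and a further Nr1d1 probe gave 2.05. Nr1d2 read 9.99 and 10.29 in DKO against 9.68 and 9.58 in wild type, a difference of 0.51. The sources used here do not say whether the probes lie within the deleted part of either gene. These signals therefore do not check the genotype, and DKO and wild type are used as the labels give them. Across the 6 times Nr1d1 means ran from 6.42 at ZT20 to 10.51 at ZT4 in wild type and from 8.81 to 11.03 in DKO. Nr1d2 ran from 7.70 at ZT0 to 10.92 at ZT12 in wild type, but only from 9.58 to 10.14 in DKO.

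Among the clock activators and direct targets, Npas2, the activator that can replace CLOCK as partner of BMAL1, was apart. It read 6.96 and 7.44 in DKO and 5.50 and 5.35 in wild type, where it was not detected on either array, so DKO was at least 1.44-fold higher. Arntl read 9.48 and 9.96 in DKO and 8.76 and 8.46 in wild type, a difference of 1.11 with no overlap between the genotypes, though its closest arrays were less than 1 unit from each other. Nfil3 was 0.60 higher in DKO, at 12.99 and 12.65 against 12.24 and 12.18. Clock differed by 0.13 and Rora, which encodes the activating competitor at the same element, by -0.21. ZT16 was not the time at which Arntl differed most: the difference was 3.85 at ZT8 and 3.45 at ZT12, when wild-type means were 5.64 and 6.01, while DKO stayed between 9.45 and 9.88 at all 6 times.

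Of the 8 clock repressors measured, 0 were apart at ZT16. Per2, a period gene of the negative limb, read 11.66 and 11.74 in DKO and 12.30 and 12.36 in wild type, a difference of -0.63, and its other probe gave -1.01. Per3 and Bhlhe40 differed by -0.58 and -0.54, Cry2 by -0.24 and Per1 by 0.11, and Ciart, an inhibitor of CLOCK and BMAL1, by 0.52. The casein kinase genes Csnk1d and Csnk1e, which encode kinases of the PER proteins, differed by 0.24 and -0.13. Bhlhe40 read 12.46 and 12.56 in DKO against 12.95 and 13.15 in wild type, and Ciart 9.24 and 9.40 against 8.84 and 8.77. For Per1, Per3 and Cry2 the arrays of the genotypes overlapped.

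Clock output was split. Dbp, a D-box activator and a classical output of the clock, was apart at 13.63 and 13.61 in DKO against 11.62 and 11.39 in wild type, 4.33-fold higher. For Dbp, ZT16 lay on a declining slope in both genotypes. Wild-type means went from 14.45 at ZT12 through 11.51 at ZT16 to 9.30 at ZT20, and DKO means from 13.96 through 13.62 to 11.81. Nampt, the rate-limiting enzyme of NAD salvage, was lower in DKO by 1.06, at 9.31 and 9.37 against 10.30 and 10.50. Usp2, a rhythmic ubiquitin protease, was lower by 0.96, at 10.73 and 10.86 against 11.72 and 11.80. The genotypes did not overlap for Nampt or Usp2, with a gap under 1 unit for these probes, and a further probe of each gave -1.35 for Nampt and -1.65 for Usp2. Gys2 (liver glycogen synthase) and Tfrc (transferrin receptor) differed by -0.49 and -0.57, and Tef and Alas1 (the first enzyme of heme synthesis) by 0.17 and -0.01. Further probes gave the opposite sign for Tef (-0.37), Clock (-0.08), Per1 (-0.15) and Csnk1e (0.22).

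**Figure D1:**
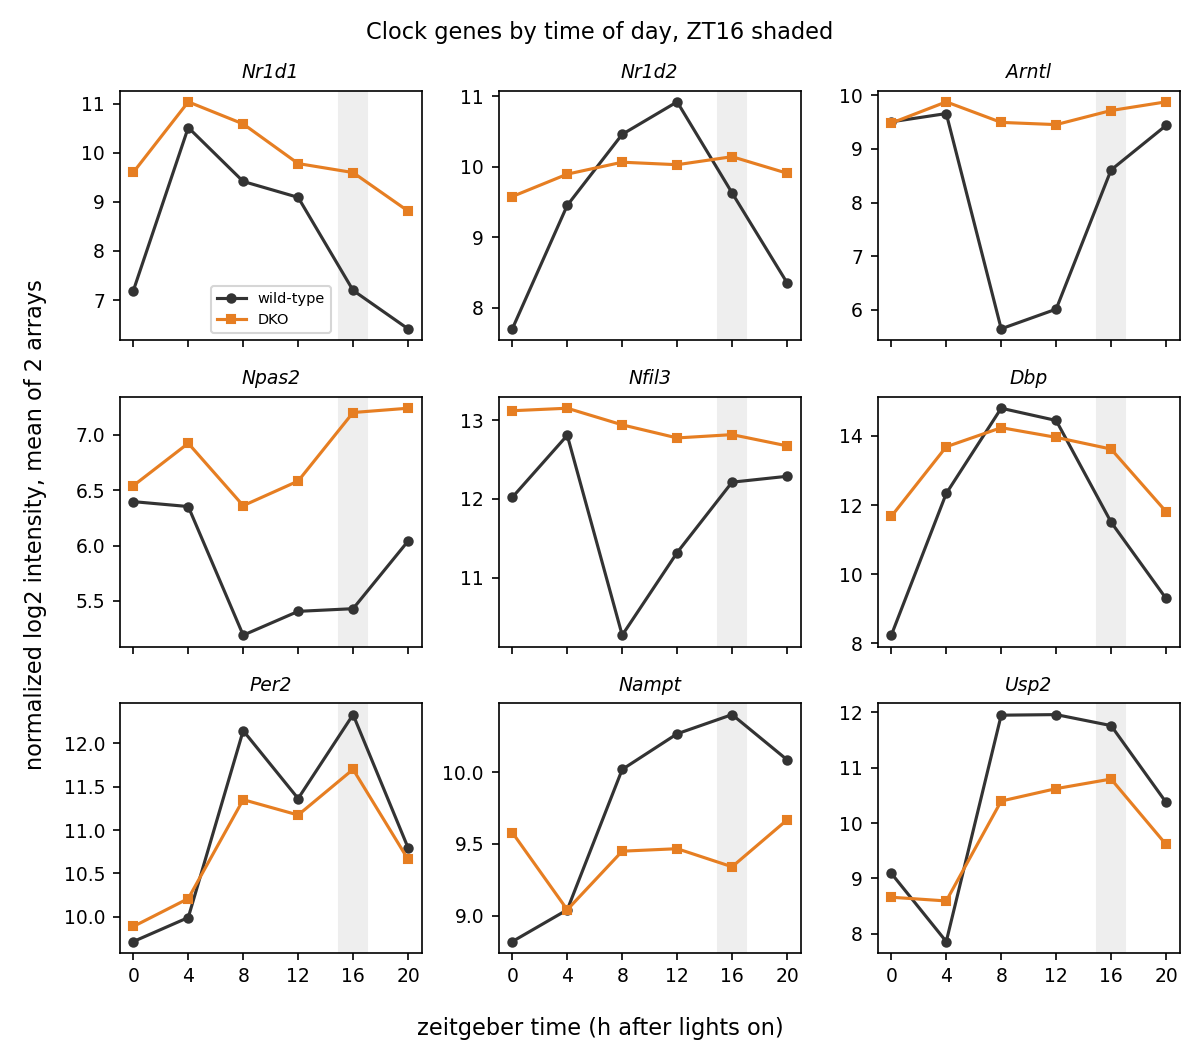
Mean normalized log2 intensity of 9 clock genes (y axis) against zeitgeber time in hours (x axis), for wild type (circles) and DKO (squares), with each point the mean of 2 technical arrays and ZT16 shaded. At ZT16 Nr1d1, Npas2 and Dbp lie higher in DKO, by 2.40, 1.77 and 2.11, and Per2, Nampt and Usp2 lie lower, by 0.63, 1.06 and 0.96 log2 units.

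Across the whole array, 82 of 7272 genes (1.13%) were apart with DKO higher and 63 (0.866%) with DKO lower, 145 in all (1.99%), while the median difference over all genes was 0.01. When arrays were scaled to a common median instead, the balance turned, to 53 higher and 151 lower, and the median of all genes was -0.31. Of the 82 higher genes 27 were undetected on both wild-type arrays, and of the 63 lower genes 22 were undetected on both DKO arrays, so that for these only a lower bound of the fold is given. At the edge of the rule, Cxcl10 (gap 1.00) and Bcl6 (gap 1.01) lay just inside, and Rgs3 and Ncald just outside with gaps of 0.999788 and 0.99957. Counts of this kind at the other times, higher and lower, were 242 and 102 at ZT0, 36 and 40 at ZT4, 127 and 107 at ZT8, 104 and 139 at ZT12, and 104 and 95 at ZT20.

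**Figure D2:**
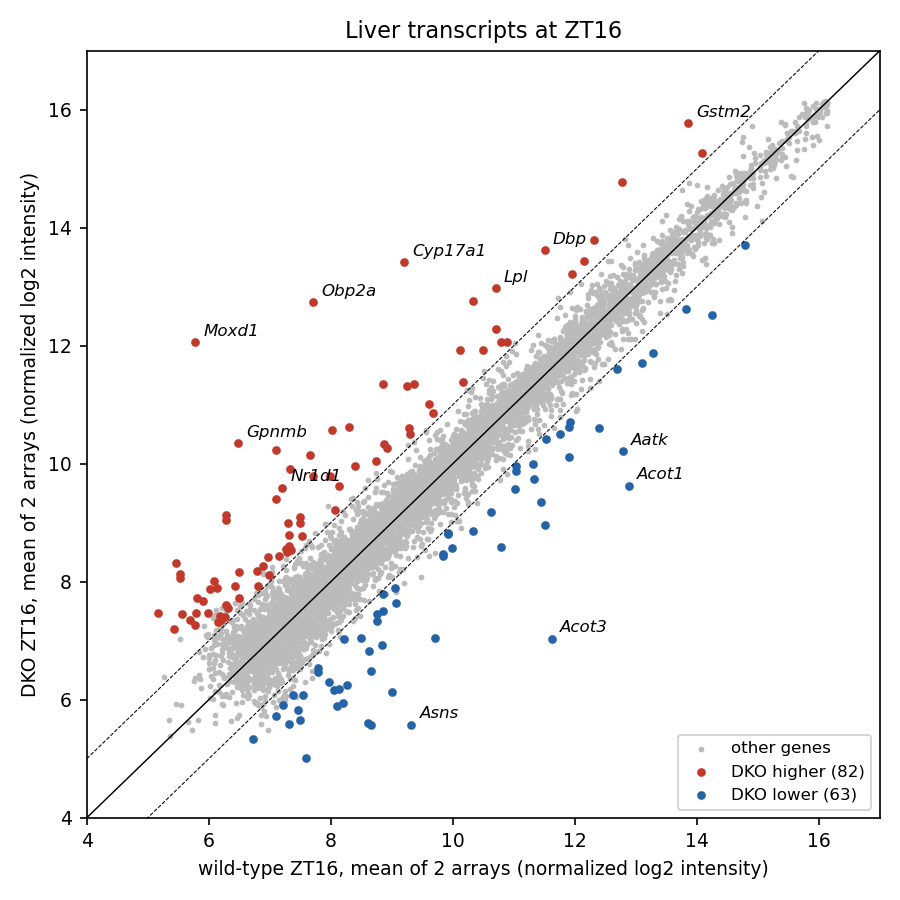
Each point is 1 of 7272 genes at ZT16, with the wild-type mean of 2 arrays on the x axis and the DKO mean of 2 arrays on the y axis, both as normalized log2 intensity. Dashed lines mark a difference of 1 log2 unit, and the 82 genes apart with DKO higher and the 63 with DKO lower are coloured, with Moxd1 (6.29) and Acot3 (-4.59) the furthest from the diagonal.

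The largest difference was in Moxd1, a copper-dependent monooxygenase of the dopamine beta-hydroxylase family. It read 12.07 and 12.06 in DKO and 5.64 and 5.90 in wild type, undetected there, and was at least 41.87-fold higher in DKO; its other probe differed by 4.83. Moxd1 means in DKO ran from 8.95 at ZT20 to 13.27 at ZT8, and in wild type from 5.50 to 5.84 except in the ZT4 sample, which read 11.91. Obp2a, a lipocalin of the odorant-binding protein family, read 12.61 and 12.86 in DKO and 7.55 and 7.87 in wild type, 32.7-fold higher. Cyp17a1, the steroid hydroxylase and lyase of androgen synthesis, read 13.37 and 13.45 against 9.25 and 9.15, 18.5-fold higher. The glycoprotein gene Gpnmb, known from macrophages and melanocytes, read 10.41 and 10.30 in DKO against 6.51 and 6.44 in wild type, at least 12.83-fold higher. For each of these 4 genes both DKO arrays lay close together and far above both wild-type arrays.

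The other 6 of the 10 largest differences with DKO higher ran from 2.56 to 3.12. Cyp2d12, a drug-metabolizing cytochrome P450, was 8.69-fold higher, at 10.16 and 10.30 against 7.08 and 7.14. Tff2, a mucosal trefoil peptide, was 7.20-fold higher, at 9.17 and 9.09 against 5.83 and 6.73, the widest spread within a pair among these 10 genes. In wild type Tff2 was detected on only 1 of the 2 arrays. Gstm3, a mu-class glutathione transferase, was at least 3.13-fold higher. The whey acidic protein family gene Wfdc12 was at least 5.17-fold higher, and the extracellular matrix gene Sbspon at least 2.76-fold. Rgs16, which encodes a GTPase activator that ends G protein signals, read 9.74 and 10.07 against 7.56 and 7.12, 5.91-fold higher.

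Of the 10 genes furthest below wild type, 4 act in lipid handling. Acot3, a peroxisomal acyl-CoA thioesterase, read 7.12 and 6.95 in DKO and 11.70 and 11.54 in wild type, a difference of -4.59. Its cytosolic relative Acot1 read 9.49 and 9.77 against 12.85 and 12.92, 9.56-fold lower, with a further probe at -3.19. The lipid droplet protein gene Cidea was undetected in DKO, at 5.37 and 5.77, and read 8.61 and 8.71 in wild type, at least 3.51-fold lower in DKO. Fitm1, which encodes an endoplasmic reticulum protein that promotes droplet formation, read 7.40 and 6.71 against 9.78 and 9.64, 6.31-fold lower. In DKO Fitm1 was detected on only 1 of the 2 arrays. Near-identical members of the Acot cluster can share signal on a short probe, which was not tested.

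The remaining large differences with DKO lower were of other kinds. Asns, asparagine synthetase, read 5.46 and 5.69 in DKO, undetected, and 9.33 and 9.31 in wild type, at least 5.56-fold lower. The collagen gene Col27a1, the tropomyosin gene Tpm2 and the sulfate transporter gene Slc13a4 were all undetected in DKO, at least 3.39-fold, 4.48-fold and 1.67-fold lower. Aatk, a membrane-bound kinase, read 10.22 on both DKO arrays and 12.79 on both wild-type arrays, 5.95-fold lower, and the calsyntenin gene Clstn3 was 5.84-fold lower, at 9.08 and 8.86 against 11.55 and 11.48.

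**Figure D3:**
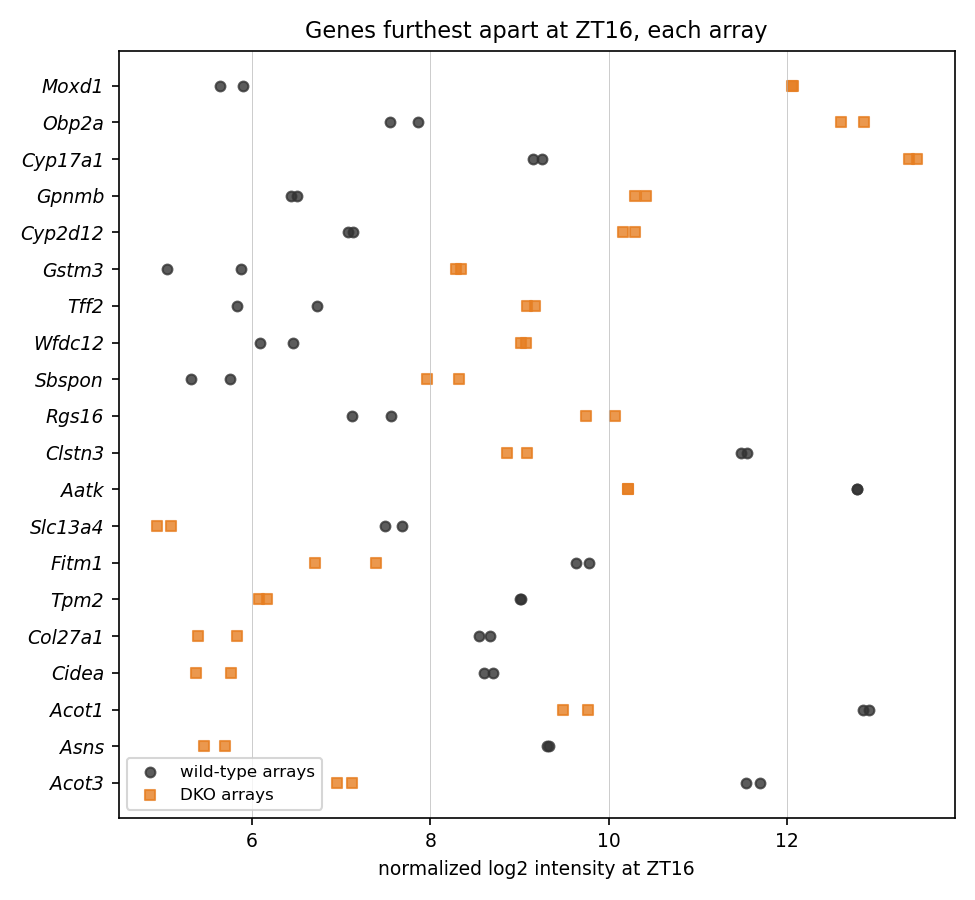
Normalized log2 intensity at ZT16 (x axis) of the 10 genes with the largest difference in each direction (y axis), with each array drawn as its own point, wild type as circles and DKO as squares. Arrays of the same genotype lie close together for most genes and no gene has overlapping genotypes, from Moxd1 (12.07 and 12.06 in DKO, 5.64 and 5.90 in wild type) to Acot3 (7.12 and 6.95 in DKO, 11.70 and 11.54 in wild type).

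Fatty acid metabolism was described over lists. Acyl-CoA thioesterases and Cyp4a hydroxylases, which act on fatty acyl-CoA and on the omega end of fatty acids, had a list median of -1.07. Of 9 measured, 5 were apart with DKO lower, compared with 0.866% of all genes, and 0 with DKO higher. Beside Acot3 and Acot1 these were Acot4 (-2.10; 9.51 and 9.19 against 11.43 and 11.46), Cyp4a14 (-1.40; 11.88 and 11.89 against 13.31 and 13.26) and Cyp4a31 (-1.07). Cyp4a12b was the 1 member above 0, at 0.26. Against the wild-type samples of the same slide, ZT0 and ZT4, the Cyp4a14 difference was 0.11 and the list median -0.27. Against ZT0 alone, without the ZT4 sample, they were -0.77 and -0.61, so the turn of sign for Cyp4a14 rested on the ZT4 sample.

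Fatty acid oxidation and ketogenesis had 14 genes measured, of which 13 were below 0, compared with 48.1% of all genes. The list median was -0.34. The list's transcription factor Ppara, the receptor that drives fasting fat oxidation, was apart at 7.71 and 7.56 in DKO against 8.99 and 9.14 in wild type, 2.70-fold lower. Against the same-slide wild-type samples Ppara differed by only -0.43, and by -0.09 against ZT0 alone. Fgf21, a fasting hormone that PPAR alpha is known to induce, was the 1 member above 0, at 8.31 and 8.24 against 7.16 and 6.63, 2.60-fold higher. In wild type Fgf21 was detected on only 1 of the 2 arrays. Angptl4, an inhibitor of lipoprotein lipase, differed by -0.80, and the carnitine carrier gene Slc25a20 by -0.69, with both arrays of DKO below both of wild type, yet neither was apart. The dehydrogenase genes Acadm and Acadl differed by -0.25 and -0.48.

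Of 14 genes of lipid uptake and lipid droplets 4 were apart with DKO lower and 1 with DKO higher, compared with 0.866% and 1.13% of all genes. The lower genes were Cidea, Fitm1, Cidec (-2.26; 6.05 and 5.85, undetected in DKO, against 8.28 and 8.13) and G0s2, an inhibitor of adipose triglyceride lipase (-1.40; 11.69 and 11.73 against 13.04 and 13.18). The higher gene was Lpl, lipoprotein lipase, at 12.95 and 13.00 in DKO against 10.75 and 10.65 in wild type, 4.83-fold higher. The droplet coat genes Plin2 and Plin5 differed by -0.28 and 0.16. The list median was -0.30 over its 14 genes and 0.06 over its members detected on all 24 arrays.

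De novo lipogenesis had 12 genes measured, of which 0 were apart, and the median was 0.01, with Fasn (fatty acid synthase) at -0.26, Scd1 (stearoyl-CoA desaturase) at -0.02, Srebf1 at 0.18 and Mid1ip1, an activator of acetyl-CoA carboxylase, at 0.36. At ZT8 the same list had a median of -0.99. Elongases and desaturases (median -0.09; Fads2 -0.85) and triglyceride assembly (median -0.19; Mogat1 -1.32) had 0 genes apart.

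Cholesterol synthesis genes were mostly below wild type. Of 15 measured, 13 were below 0, compared with 48.1% of all genes, and the median was -0.64. The 1 gene apart was Pmvk, phosphomevalonate kinase, at 8.59 and 8.57 in DKO against 9.76 and 10.24 in wild type, 2.67-fold lower. The sterol demethylase gene Cyp51 read 11.00 and 10.78 against 12.05 and 11.99, a difference of -1.13, and Idi1, Dhcr7 and Lss, which encode later enzymes of the pathway, differed by -0.97, -0.74 and -0.68. Hmgcs1, the synthase ahead of the rate-limiting step, differed by -0.08, and Insig2, a brake on sterol-regulated transcription, by 0.54. The medians of this list at ZT0, ZT4, ZT8, ZT12 and ZT20 were -0.13, -0.55, -0.38, 0.25 and 0.06. For 5 of its 15 genes (33.3%) ZT16 had the lowest difference of the 6 times, against 14.4% of all genes. That share was not particular to this list. It was also 33.3% for elongases and desaturases, 36.4% for endothelial markers and 60% for Kupffer cell and macrophage markers. For the thioesterase, lipogenesis and interferon lists it was 0%. Against the wild-type samples of the same slide the median was -0.86, and -0.59 without ZT4.

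Bile acid, glucose and hormone genes held few genes apart. Of 16 genes of bile acid synthesis and transport 0 were apart, and Cyp8b1, the sterol hydroxylase that sets the share of cholic acid, was 0.79 higher. Among 14 genes of gluconeogenesis and glycogen, Irs2, an insulin receptor substrate, was apart at 9.95 and 9.98 in DKO against 8.38 and 8.41 in wild type, 2.96-fold higher. Pck1, phosphoenolpyruvate carboxykinase, differed by -0.96, and Irs1 by 0.97. In the growth hormone axis, 1 of 8 genes was apart: Bcl6, a transcriptional repressor, at 10.46 and 10.37 against 11.60 and 11.47, 2.17-fold lower.

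Among 21 steroid-modifying and Cyp2 enzymes 3 (Cyp17a1, Cyp2d12 and Hsd3b5) were apart with DKO higher, compared with 1.13% of all genes. The list median was 0.04. Hsd3b5, a 3-ketosteroid reductase of male mouse liver, read 13.34 and 13.54 in DKO and 12.13 and 12.19 in wild type, 2.43-fold higher, but was 0.87 lower in DKO than in the same-slide wild-type samples and 0.71 lower than in ZT0 alone. Its wild-type means went from 14.48 at ZT4 to 12.16 at ZT16 and 6.99 at ZT20.

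Of 15 glutathione transferases measured, 7 were above 0 and 8 below, with a median of -0.02. The mu-class genes Gstm3, Gstm2 and Gstm6 were apart with DKO higher, and the alpha-class gene Gsta4 with DKO lower. Over all genes 1.13% were apart with DKO higher and 0.866% with DKO lower. Gstm2 read 15.74 and 15.81 against 13.86 and 13.84, 3.79-fold higher, and its other probes gave 2.08 and 2.09. Gstm6 was 2.39-fold higher and Gstm1 differed by 0.71. The alpha-class genes Gsta4, Gsta2, Gsta1 and Gsta3 differed by -1.26, -1.04, -0.91 and -0.02. Members of each class are close in sequence, and signal shared between their probes was not tested.

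Interferon response genes were higher as a list. Of 14 measured 12 were above 0, compared with 51.9% of all genes, and the median was 0.82. Apart with DKO higher were 2, compared with 1.13% of all genes. Usp18, which removes ISG15 from proteins, read 10.69 and 10.53 in DKO against 9.22 and 9.35 in wild type. Irf7, a regulator of interferon transcription, read 8.74 and 8.82 against 7.59 and 7.49. Fold differences were 2.49 and 2.36. The antiviral genes Rsad2 and Isg15 differed by 1.04 and 0.91 and the peptide transporter gene Tap1 by 1.09, with gaps under 1. Medians of the list at ZT0, ZT4, ZT8, ZT12 and ZT20 were 0.53, 0.08, 0.74, 0.58 and 0.28. Against the same-slide wild-type samples the median was 0.41, and 0.55 without ZT4.

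Markers of other liver cells are set beside these values. Of 13 listed lymphocyte markers 3 were measured, with a summed intensity of 3945 and 3726 in DKO against 2684 and 2562 in wild type, and the defining markers Cd3d, Cd3e, Cd3g, Cd8a, Cd4 and Cd79a did not pass the detection filter. The member apart was Ccl5, a chemokine of T and natural killer cells, at 9.20 and 8.78 against 7.35 and 7.26. Of 13 Kupffer cell and macrophage markers 10 were measured, with sums of 18096 and 17232 in DKO and 17295 and 16053 in wild type. Gpnmb was the only one of them apart, while Clec4f and Vsig4, which define Kupffer cells, differed by 0.30 and 0.09, and Timd4 and Marco by -1.03 and -0.90. The part of these cells in the interferon and Gpnmb differences was not tested, and in bulk tissue fewer cells of a type and less RNA per cell cannot be told apart.

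Other cell types had 0 markers apart. Endothelial markers (11 of 12 measured) had a median of -0.05, with sums of 23934 and 22674 in DKO and 21727 and 22177 in wild type, and stellate and fibroblast markers (7 of 12) a median of 0.01, with sums of 31519 and 30964 against 26389 and 26888. The cholangiocyte list kept 1 of 8, Sox9, at 8.11 and 7.51 against 6.86 and 6.69. Red blood cell markers (3 of 8) were lower in DKO, with sums of 20111 and 18762 against 28353 and 26992, and Hbb-bt differed by -1.23. Neutrophil and pancreas markers were measured for 2 genes each, with S100a9 at -0.58 and Amy2a5 at -0.21, and most of their defining members did not pass the detection filter. The summed levels of the neutrophil list were 574 and 636 against 835 and 894, and those of the pancreas list 784 and 923 against 920 and 1066.

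Lists of stress and inflammation genes were taken next. In the acute phase list 3 of 19 genes were apart with DKO lower, compared with 0.866% of all genes. They were Saa4 (-1.73, at 12.47 and 12.58 against 14.22 and 14.29), Saa1 (-1.63, undetected in DKO) and Orm2 (-1.08), which encode secreted proteins. Of 7 immediate early genes 1 was apart, Egr1, at 11.43 and 11.28 in DKO against 9.40 and 9.31 in wild type, 3.99-fold higher. Egr1 was lower in DKO by 1.51 than in the same-slide wild-type samples, and by 1.69 than in ZT0 alone. In the list of amino acid and ER stress genes Asns was the 1 gene apart of 13, and the list median was 0.05. Of 10 heat shock and cold-inducible genes 0 were apart, though 8 were below 0 and the median was -0.33. Among them Hspb1, a small heat shock protein, differed by -1.39.

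Housekeeping lists bracketed these differences. The respiratory chain (27 genes; median -0.05), ribosomal proteins (15; -0.02), proteasome subunits (23; -0.05), heme synthesis and breakdown (12; 0.03), the urea cycle and amino acid catabolism (15; 0.04) and the corepressor complex (3; 0.08) had 0 genes apart. Their members furthest from 0 were Uqcrb (-0.77), Rps27 (-0.31), Psmd2 (0.46), Clpx (0.68), Agxt (0.94) and Gps2 (0.10), for the probe used. Further probes gave 1.24 for Clpx and -0.40 for Gps2. The list medians of the thioesterases, of cholesterol synthesis and of the interferon response kept their sign under every scaling and filter tried. Other lists did too, among them fatty acid oxidation, clock output and heat shock. Medians within 0.12 of 0 turned with the scaling in several lists. Filters turned medians further from 0: lipid uptake and droplets from -0.30 to 0.06 for probes detected on all 24 arrays, and cholangiocyte markers from 1.04 to -0.23 without a filter on dim probes.

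**Figure D4:**
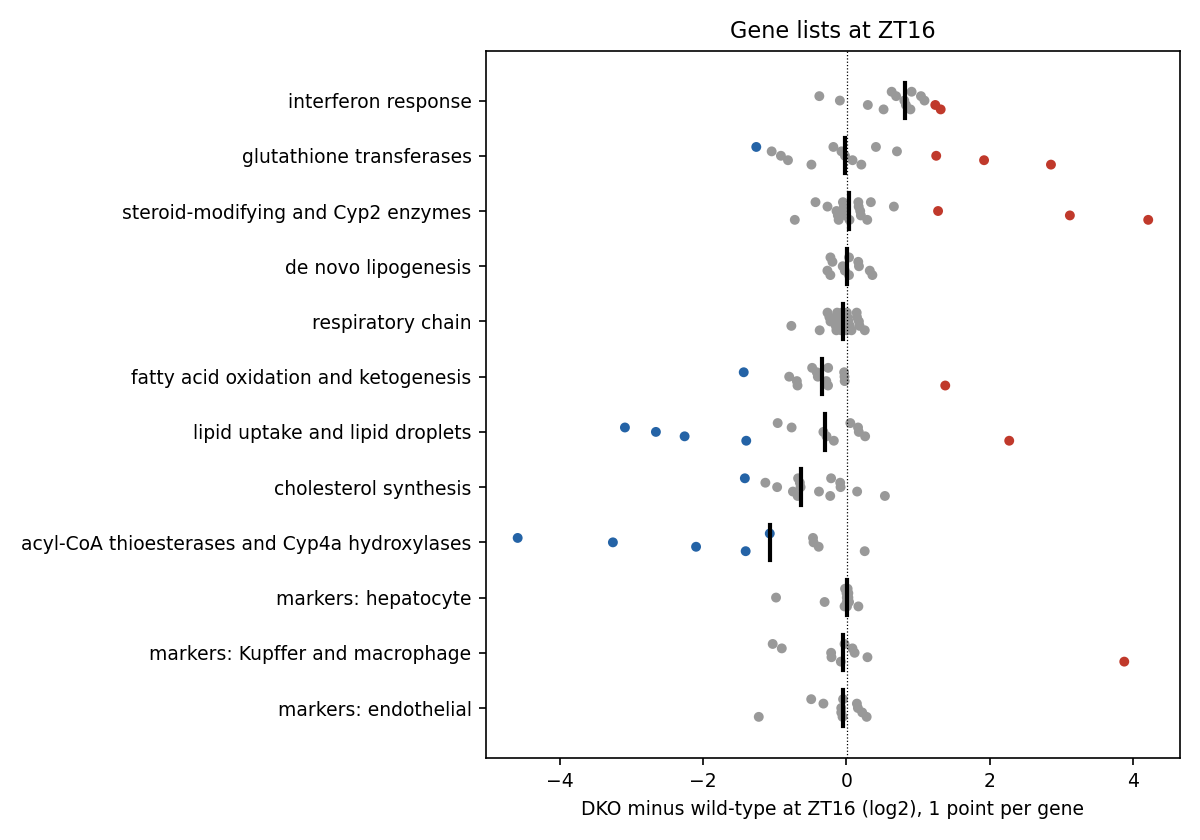
DKO minus wild-type difference at ZT16 in log2 units (x axis) for each measured gene of 12 lists (y axis), with 1 point per gene, the list median as a black bar, and genes apart coloured. The interferon list has its median at 0.82 and the thioesterase and Cyp4a list at -1.07, whereas lipogenesis and the hepatocyte markers have medians of 0.01.

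The other 5 times were used to ask whether these differences belonged to ZT16 alone, since their arrays did not choose the genes, although they share slides. At each of these times too the genotypes were on different slides. DKO and wild type were on slides 1 and 2 at ZT0 and ZT4, 1 and 3 at ZT8 and ZT12, and 2 and 3 at ZT20. The effects of slide and of genotype therefore cannot be told apart there either, in the counts or in the tests below. Wild type at ZT8, ZT12 and ZT20 shared slide 3 with wild type at ZT16. Of the 82 genes with DKO higher, 63 had the same direction at ZT0, 59 at ZT4, 77 at ZT8, 75 at ZT12 and 80 at ZT20, and 46 had it at all 5, compared with 962 of all 7272 genes. Of the 63 with DKO lower the counts were 52, 58, 56, 61 and 57, and 41 had it at all 5, compared with 914 of all genes. By the same array rule, 33, 13, 46, 37 and 45 of the 82 were also apart upwards at those times, which is 13.6%, 36.1%, 36.2%, 35.6% and 43.3% of the genes apart upwards there and 40.2%, 15.9%, 56.1%, 45.1% and 54.9% of the 82. Of the 63, 18, 12, 27, 38 and 32 were also apart downwards, 28.6%, 19.0%, 42.9%, 60.3% and 50.8% of the 63 and 17.6%, 30.0%, 25.2%, 27.3% and 33.7% of those apart downwards at each time.

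Some genes were apart at all 6 times. With DKO higher these were 7: Cyp17a1, Cyp2d12, Tff2, Ntrk2 (a neurotrophin receptor), Loxl4 (a lysyl oxidase), Wfdc15b and the predicted gene Gm14685. With DKO lower they were also 7: Acot1, Fitm1, Aatk, Clstn3, Dio1 (the liver deiodinase that activates thyroid hormone), Serpinb1a (a protease inhibitor) and Sp5 (a transcription factor). Apart at ZT16 and at no other time were 13 genes with DKO higher, among them Npas2, Ccl5, Cd8b1 and Gstm6. With DKO lower there were 10, among them Bcl6, Sult1a1 (a phenol sulfotransferase), Pctp (a phosphatidylcholine transfer protein) and Gda (guanine deaminase). Of those named, Npas2, Cd8b1, Sult1a1 and Pctp still had the same direction at all 6 times, whereas Ccl5, Gstm6, Bcl6 and Gda did not. Over the other 5 times Cd8b1 averaged 0.80 and Sult1a1 -0.47. Genes named in this paragraph outside the lists were picked from these counts after their values were seen.

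The mean difference at the other 5 times was tested with limma, with times of day standing in for replicates and Benjamini-Hochberg adjustment over 7272 genes. It was above 0 for 163 genes (2.24%) and below 0 for 242 (3.33%), 405 in all (5.57%), and 1952 genes had an unadjusted p under 0.05. Of the 82 genes with DKO higher at ZT16, 30 were called in the same direction, and of the 63 with DKO lower 28; 0 were called in the opposite one. Clstn3 averaged -2.95 ± 0.15 (SE, 5 times; limma adjusted p = 0.00065), Cyp2d12 2.42 ± 0.17 (adjusted p = 0.0022), Acot1 -2.99 ± 0.30 (adjusted p = 0.0090) and Lpl 3.07 ± 0.41 (adjusted p = 0.019), each in the same direction at all 5 times. Nr1d1 (1.44 ± 0.32, adjusted p = 0.049) and Npas2 (0.85 ± 0.18, adjusted p = 0.045) passed, as did Gstm2, Saa4, Gsta4, Cyp4a14 and Acot3. Dbp (1.25, adjusted p = 0.23), Ppara (-0.68, adjusted p = 0.064), Moxd1 (4.75, adjusted p = 0.053) and Asns (-0.55, adjusted p = 0.64) did not. The counts rest on few times: higher and lower, they were 65 and 84 without ZT0, 104 and 139 without ZT4, 7 and 19 without ZT8, 11 and 29 without ZT12 and 12 and 25 without ZT20, and 0 with an intensity trend and robust variances. With each time left out in turn, 4 of the 30 (Cyp2d12, Loxl4, Wfdc15b and Tmem237) and 6 of the 28 (Fitm1, Aatk, Acot1, Clstn3, Dio1 and Sp5) were called in every fit.

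The departure of ZT16 from the mean of the other 5 times was tested in the same limma fit. It passed for 0 of 7272 genes (0%), with 235 at an unadjusted p under 0.05, so that at this number of times no difference was shown to be particular to ZT16. The lowest p values were those of Cebpe (a myeloid transcription factor), Ces2a (a carboxylesterase) and Hspa1a (an inducible heat shock protein), which departed by 1.42, 1.42 and -1.60, each with a limma adjusted p of 0.998. With the slide pair as a covariate, ZT16 is set against ZT20 alone, which shares its slides, and 1 gene passed, Asns, whose difference was 6.84 lower at ZT16 than at ZT20 (limma adjusted p = 0.043).

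**Figure D5:**
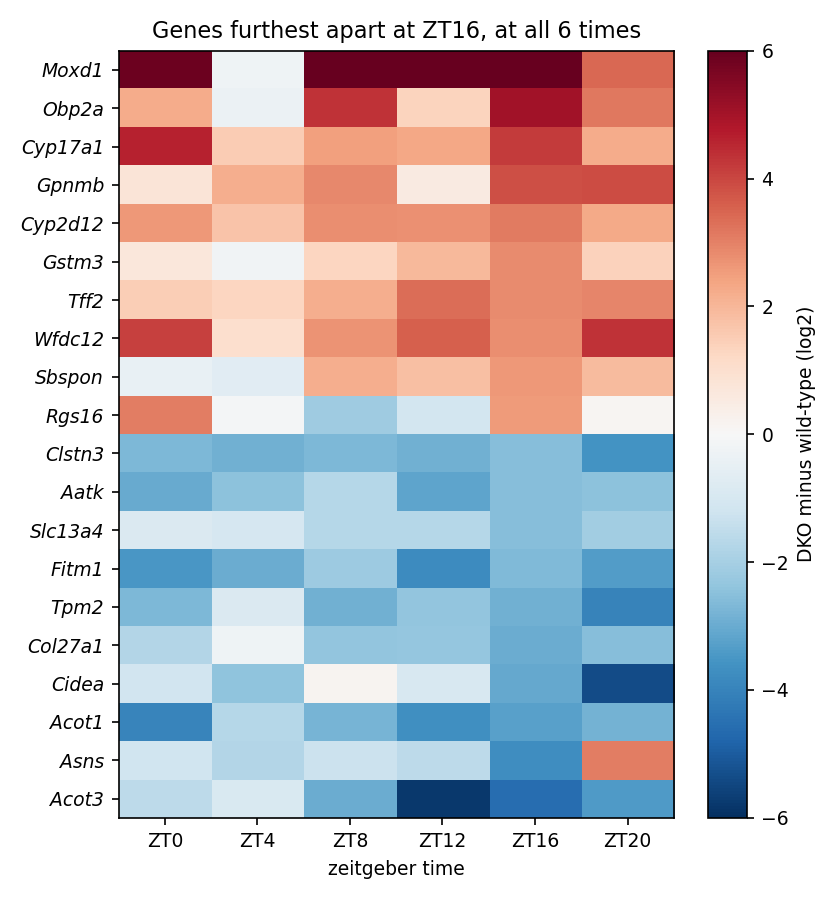
DKO minus wild-type difference in log2 units (colour, capped at 6 in either direction) for the 10 genes furthest apart in each direction at ZT16 (rows) at the 6 zeitgeber times (columns). Acot1, Acot3, Fitm1, Aatk, Clstn3, Col27a1, Tpm2 and Slc13a4 are lower in DKO in every column. Moxd1, Obp2a, Gstm3, Sbspon, Cidea, Rgs16 and Asns change direction, Asns from -3.74 at ZT16 to 3.09 at ZT20.

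Because slide and genotype coincide at ZT16, the DKO arrays were also set against the wild-type samples on their own slide, ZT0 and ZT4, which holds the slide and changes the time of day. Of the 82 genes with DKO higher 67 (81.7%) stayed above 0 and of the 63 with DKO lower 60 (95.2%) stayed below 0, while 50.2% of all genes were above 0. The same DKO arrays chose these genes, so staying on the chosen side is partly built in. The share over all genes is therefore not a like reference, and the counts do not test for an effect of slide. Against ZT0 alone the counts were 68 and 60. The ZT4 sample moved several single values by over 1.5 times. Moxd1 differed by 3.19 against ZT0 and ZT4 and by 6.23 against ZT0 alone, Wfdc12 by 1.39 and 2.30, Lpl by 0.87 and 1.61, and Fgf21 by 0.19 and 0.45. Cyp17a1 differed by 3.65 and 5.24, Gpnmb by 4.07 and 3.98, Gstm3 by 1.55 and 2.12, and Sbspon by 0.02 and 0.01. Among lower genes Acot3 differed by -1.49 and -1.69, Acot1 by -2.07 and -2.59, and Asns by -3.90 and -3.94. Ppara differed by -0.43 and -0.09, Acot4 by -0.27 and -0.52, and Cidec by -0.20 and -0.26. Against wild type at ZT16 Ppara, Acot4 and Cidec had differed by -1.43, -2.10 and -2.26. The medians of the clock repressors and the clock output genes turned from -0.18 and -0.49 to 0.84 and 1.25, or 0.95 and 1.47 against ZT0 alone, with a reference from another phase of the day.

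Promoter windows were searched for TAGGTCA and for the E-box CACGTG on both strands. Of the 82 genes with DKO higher 55 had a window in the RefSeq table, and 3 of those (5.45%) held TAGGTCA, compared with 2.58% of 5962 measured genes and 2.61% of all windows. Of the 63 with DKO lower 52 had a window and 0 held it. The E-box was in 9.09% and 9.62% of these genes and in 12.3% of measured genes and 7.15% of all windows. The genes apart with TAGGTCA were Cxcl9, St6gal1 and Tspan8; Arntl and Nfil3, shown above, hold it and were not apart. A match is a string of letters in this window and was not tested as a binding site.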

How the data were processed

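The submitters' processing notes name GenomeStudio as the software, without a version. The deposited signal is a linear intensity, the mean over a probe's beads without normalization between arrays, and the deposited detection p-value sets a probe against negative controls, per the file headers. A deposited table of the authors' processed intensity values had array medians of 278.8 to 279.0, a linear scale and no seen centring of genes, and its normalization stays unknown.

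In R 4.3.3 with limma 3.58.1, all 24 arrays were background-corrected (normexp from detection p-values, offset 16), quantile-normalized and put on a log2 scale. The filter kept probes that both arrays of 2 or more of the 12 groups detected (p under 0.01): 10243, of which 586 had no listed gene. Of 25697 probes 23978 had 1 symbol, 0 had several and 1719 none. The kept probe with the highest mean stood for each of 7272 genes. Where 1 genotype was undetected on both arrays, a fold is a lower bound: the other genotype's mean over a floor set, array by array, by the lowest signal among detected probes or by the probe itself where that is higher. A limma fit on the 6 DKO minus wild-type differences (intercept and ZT16 indicator; 4 residual degrees of freedom) gave the tests, with a threshold of 0.05, and was tested on simulated data. The number of arrays limits the precision, and p-values measure the spread between times.

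The members and lists were chosen with earlier results of these data known. Named genes were all measured clock genes, the 10 largest differences in each direction among genes apart (passing over predicted transcripts), up to 4 genes apart per other list or its largest difference where none was apart, and the 3 lowest departure p-values.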

Additional observations from a re-analysis of the deposited data

Results flagged for a closer look

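For 5 named genes the DKO minus wild-type difference at ZT16 had the opposite direction to that at another time, with the arrays of the genotypes apart at both. Asns differed by -3.74 at ZT16 and 3.09 at ZT20. At ZT0, ZT4, ZT8 and ZT12 it differed by -1.20, -1.76, -1.29 and -1.59, so ZT20 was the time with the opposite sign. Fgf21 differed by 1.38 at ZT16 and -1.34 at ZT12. Orm2 differed by -1.08 at ZT16, and by 1.87 at ZT0 and 1.62 at ZT8. Rgs16 differed by 2.56 at ZT16 and -2.14 at ZT8, when its wild-type mean was at its highest, 12.21. Saa1 differed by -1.63 at ZT16 and 1.79 at ZT8. For Asns the difference between ZT16 and ZT20, which share a slide pair, was -6.84 in the limma fit with the slide pair as a covariate (adjusted p = 0.043). The other pairs of times were not tested. In the fit without that covariate, the departure of ZT16 from the other 5 times had an adjusted p of 0.998 for all 5 genes.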

How the results depend on the processing

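Limits are 1 RNA sample per genotype, slides that coincide with genotype, and signals near background. Against 82 higher and 63 lower genes apart, counts were 35 and 25 without background correction, 53 and 151 with median scaling, 36 and 25 with the authors' processed values, 41 and 32 for probes detected on all 24 arrays, 239 and 206 at 1.5-fold, and 19 and 13 at 4-fold. Median scaling moved the median of all genes to -0.31, and the other-time test gave 74 higher and 546 lower genes with it, against 163 and 242. Without a filter on dim probes that test gave 161 lower genes. Leaving out 1 array in turn gave 101 to 122 higher and 82 to 109 lower genes (109 without DKO array 1, 100 without DKO array 2). With fewer arrays the rule is looser, so these counts could not fall and every gene apart had to stay. Leaving out 1 time in turn gave 7 to 104 higher and 19 to 139 lower genes in the other-time test, and an intensity trend with robust variances 0 and 0 (991 and 955 at an unadjusted p under 0.05); the cause was not tested. With the slide pair as a covariate, which sets ZT16 against ZT20, the departure test called 1 gene. With the replicate block, same-numbered arrays paired, 92 and 77 genes were apart. Array numbers mark technical replicates only, and this rule too is looser, so its counts could not fall. The same-slide reference gave 79 higher and 37 lower genes (30 and 19 shared with the 82 and 63), and turned Cyp4a14 (0.11), Hsd3b5 (-0.87) and Egr1 (-1.51). With ZT0 alone, added after the data were seen, counts were 107 and 65 (37 and 26 shared), Hsd3b5 was at -0.71 and Egr1 at -1.69, and Cyp4a14 was at -0.77, not turned.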

Other observations

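Genes outside the lists were read from the genes apart after their values were seen. Beside Ccl5, the chemokine genes Ccl4 (9.22 and 8.97 in DKO against 7.57 and 7.42 in wild type), Cxcl9 (11.90 and 11.96 against 10.52 and 10.47) and Cxcl10 (8.47 and 8.73 against 7.47 and 7.17), which encode attractants of leukocytes, were 3.03-fold, 2.70-fold and 2.43-fold higher in DKO. Cd8b1, which encodes a chain of the T cell co-receptor CD8, read 8.32 and 8.02 against 6.57 and 6.43, undetected in wild type, and was at least 2.82-fold higher. The interferon-inducible genes Oas1g and Ly6e were 3.46-fold and 2.99-fold higher, and Mmp12, a macrophage elastase, at least 1.73-fold. Over the other 5 times Ccl5 averaged 0.11, Cxcl9 0.31, Ccl4 1.62, Cd8b1 0.80 (limma adjusted p = 0.023) and Ly6e 1.42 (limma adjusted p = 0.025).

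Cdkn1a, the cell cycle inhibitor p21, read 10.54 and 10.59 in DKO against 7.90 and 8.16 in wild type, 5.81-fold higher, and the carbonic anhydrase gene Car14 was 5.38-fold higher. Among lower genes, Dio1 read 10.60 and 10.61 against 12.40 and 12.41, 3.49-fold lower, and Noct, a rhythmic phosphatase first described as a deadenylase, 10.03 and 10.20 against 11.82 and 12.00, 3.47-fold lower. The nuclear receptor gene Pparg was 2.14-fold lower and the carnitine transporter gene Slc22a5 was 2.78-fold lower, while the acyltransferase gene Gpat3, undetected in DKO, was at least 2.45-fold lower.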
